A study of Rattus norvegicus with 4 samples.

Results

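The mitochondrial oxidative phosphorylation genes were followed in cultured neonatal rat ovaries given glial cell line-derived neurotrophic factor (GDNF) or no factor. GDNF is a secreted growth factor whose signal passes through Gfra1 and the kinase Ret. Members were taken by name: every probe set with a single gene symbol that begins with Nduf, Uqcr, Cox4 to Cox8 or Atp5, together with Cyc1 and Sdha to Sdhd. The rule gave 97 probe sets of 87 genes, out of 31042 probe sets on the array and 14217 genes with a probe set of 1 symbol. The brightest probe set by mean over the 4 arrays stood for each gene. Membership rests on names and no measured value, while the choice of probe set uses the mean signal. The names were chosen with earlier results of these data known. By respiratory complex the 87 genes were 34 of complex I, 4 of complex II, 8 of complex III, 16 of complex IV and 15 of complex V. Another 10 genes carried these prefixes without being standard subunits: 6 complex I assembly factors, the paralogue Ndufa4l2, the supercomplex factor Cox7a2l, the ATP synthase inhibitor Atp5if1 and the pseudogene Cox6c-ps1. A further 7 probe sets with a member's symbol beside another gene's were left out. These were of Atp5mc1, Atp5mc2, Cox7a2, Ndufa10, Ndufs5 and Uqcrb, with another probe set of Cox5a.

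Oxidative phosphorylation takes place at the inner mitochondrial membrane. Complexes I and II pass electrons from NADH and succinate to ubiquinone, complex III passes them on to cytochrome c, and complex IV hands them to oxygen. Complexes I, III and IV pump protons across the membrane, and complex V, the ATP synthase, uses the gradient to make ATP. Most subunits are encoded in the nucleus and a few in mitochondrial DNA. The oocyte is rich in mitochondria, while granulosa cells supply it with pyruvate as a fuel.

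The ovaries came from 4-day-old female rats, an age at which most follicles are primordial, and were kept for 2 days in whole organ culture on filters. By their titles and descriptions, 2 samples were treated with GDNF, at a dose not given in the sources used here, and 2 were controls with no factor. The treatment text attached to each of the 4 samples names no factor, so the groups rest on the titles, descriptions and series design. All 4 shared the same medium with albumin, insulin, transferrin and ascorbic acid, and each was RNA of 6 to 10 pooled ovaries on 1 Affymetrix array. A group held at most 1 ovary of any animal, so the GDNF and control pools may share animals. Whether the replicate pools were made on separate days or from separate litters is not given. The p-values, standard errors and intervals therefore reflect the spread among these 4 arrays alone, and that spread may be technical. The number of arrays limits the precision, and an exact two-sided permutation test of 2 samples against 2 cannot go below p = 0.333.

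Values are MAS5 signals, on a linear scale that each array was set to by a common trimmed mean (125.03 to 125.04), so a change in the total RNA of an ovary leaves no trace. The signals of different probe sets cannot be compared as levels. The median signal of an array lay between 36.7 and 41.1. Ovarian identity was clear from the oocyte genes Zp3 (2106 and 2732 in GDNF, 1665 and 2014 in control samples) and Gdf9 (902 and 1001 in GDNF, 545 and 706 in control samples). In whole ovaries, fewer cells of a type and less RNA per cell cannot be told apart. Some marker lists differed in summed signal, though 0 of their genes passed the limma threshold described below (0% of all probe sets tested). With replicate number as a block, an alternative given at the end, Gdf9 passed. An unadjusted limma p under 0.05 was found for 3 of 6 oocyte, 5 of 8 granulosa, 1 of 7 theca and stroma and 1 of 6 surface epithelium markers. It was found for 0 of the other markers tested, and for 2.73% of all probe sets tested. All 6 oocyte markers tested, of 11 listed, had a higher mean in GDNF samples, with summed signals of 5249 and 6654 in GDNF and 3983 and 4967 in control samples. All 6 surface epithelium markers tested had a lower mean in GDNF, with sums of 5285 and 4723 in GDNF and 6446 and 5416 in control samples. All 6 leukocyte markers did too, with sums of 1109 and 736 in GDNF and 1115 and 887 in control samples, which overlap. Both GDNF samples lay below both controls in 2 of 6 surface epithelium and 3 of 6 leukocyte markers (16.6% of all probe sets tested). They lay above both in 4 of 6 oocyte markers (13.4%). The median log2 fold change (GDNF minus control) was -0.23 for surface epithelium, -0.27 for leukocyte and 0.47 for oocyte markers. Without control replicate 1 these medians were -0.017, -0.15 and 0.29. Of the other lists, 5 of 8 granulosa, 4 of 7 theca and stroma, 0 of 4 endothelial, 2 of 2 erythroid and 0 of 3 adipocyte genes tested had a higher mean in GDNF. Among the granulosa genes the groups did not overlap in 4 that were higher (13.4% of all probe sets tested) and 3 that were lower (16.6%). The striated muscle markers were near the floor, with sums of 56.3 and 38.6 in GDNF and 37.7 and 27.7 in control samples, and none was tested. The part of these cell types in the values below was not tested.

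The promoters of the members were searched for motifs of known regulators. RefSeq (build GRCr8) gave a promoter, 250 bases before to 50 after the start of the gene, for 78 of the 87 genes, and both strands were searched for the core motifs of 4 factors known to act on respiratory genes. In 32 of the 78 none of the 4 motifs was found. The motif of NRF1, spelled GCGCANGCG, lay in 19 of the 78 (24.4%), against 5.80% of all 33469 promoters and 13.1% of the 9875 promoters of genes tested on the array. The ETS motif bound by GABP, CCGGAAG, lay in 22 (28.2%), against 8.75% of all promoters and 17.6% of those of tested genes. The YY1 motif AAGATGGC lay in 17 (21.8%), against 3.17% and 5.45%. The ERR-alpha motif TGACCTTG lay in 3 (3.85%), against 1.52% and 1.01%. A promoter could count under several motifs, and 46 of the 78 (59.0%) held at least 1 of the NRF1, ETS and YY1 motifs, against 30.9% of the promoters of tested genes. A match is a description of these letters and not evidence of binding. The stretches below are the 250 bases before the start, 5′ to 3′ on the gene's strand, with the matches in capitals. Atp5me is shown as 1 of the 3 members with 3 kinds of motif, Atp5pf as an example of 2 kinds next to each other, and Sdha for its repeated NRF1 motif.
Atp5me, chr14:1464610-1464859, plus strand: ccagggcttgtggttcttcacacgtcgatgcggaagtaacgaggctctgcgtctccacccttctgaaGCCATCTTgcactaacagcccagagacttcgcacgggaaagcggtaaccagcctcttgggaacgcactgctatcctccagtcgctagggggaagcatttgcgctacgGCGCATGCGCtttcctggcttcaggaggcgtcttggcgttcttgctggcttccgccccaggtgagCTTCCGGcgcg
Atp5pf, chr11:37375102-37375351, minus strand: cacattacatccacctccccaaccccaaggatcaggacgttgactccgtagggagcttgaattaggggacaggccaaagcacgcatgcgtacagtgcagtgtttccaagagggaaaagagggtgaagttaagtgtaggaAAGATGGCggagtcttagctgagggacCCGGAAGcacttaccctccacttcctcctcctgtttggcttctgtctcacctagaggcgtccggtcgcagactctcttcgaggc
Sdha, chr1:30764303-30764552, plus strand: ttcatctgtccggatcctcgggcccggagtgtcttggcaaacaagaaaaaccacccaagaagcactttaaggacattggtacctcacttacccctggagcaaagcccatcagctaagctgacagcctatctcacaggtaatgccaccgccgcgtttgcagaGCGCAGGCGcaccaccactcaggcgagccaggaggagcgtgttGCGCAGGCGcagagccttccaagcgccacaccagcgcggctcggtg

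In Atp5me, a membrane subunit of the ATP synthase, the YY1 match starts 183 bases, the NRF1 match 76 bases and the ETS match 11 bases before the start. The YY1 and ETS matches are on the opposite strand, and the NRF1 motif matches on both strands in overlapping letters. In Atp5pf, a subunit of its peripheral stalk, the YY1 match starts 111 and the ETS match 84 bases before the start. In Sdha, the flavoprotein of complex II, the NRF1 matches start 89 and 46 bases before the start. The 87 genes lay on 20 chromosomes, with at most 16 on 1 of them.

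No oxidative phosphorylation gene differed between GDNF and control ovaries past the threshold. For most of these genes the limma interval of the difference lay within a 1.5-fold change in either direction. The intervals reflect the spread among these arrays alone, and that spread may be technical. Of the 87 genes, 84 passed the filter on low signals and were tested. Of these, 49 were higher on average in GDNF samples and 35 lower, and the median log2 fold change (GDNF minus control, on the log2(signal + 1) scale) was 0.028. Over all 18625 probe sets tested the median was -0.0067 and 48.5% had a higher mean in GDNF. Limma with Benjamini-Hochberg adjustment over all probe sets called 0 of the 84 members, against 0% of all probe sets tested (adjusted p under 0.05, and 0.999 for every member). At an unadjusted p under 0.05 it called 0 members too, against 2.73% of all probe sets, and the smallest unadjusted limma p among members was 0.0662. The groups did not overlap in 26 members. In 19 (22.6%) both GDNF samples lay above both controls, against 13.4% of all probe sets tested. In 7 (8.33%) both lay below, against 16.6%.

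Standard errors were smaller for the members than for most of the array, in a fit that shares information on the spread among probe sets of like signal. The median standard error of the log2 fold change was 0.106 over the members and 0.177 over all probe sets tested. For 76 of the 84 members (90.5%) the 95% interval of the difference lay within a 1.5-fold change in either direction, as it did for 53.9% of all probe sets tested. Most exceptions had low signals. All 6 members with a mean signal under 100 had wider intervals, with standard errors of 0.218 to 0.39, while 76 of the 78 brighter members lay within the bound.

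**Figure D1:**
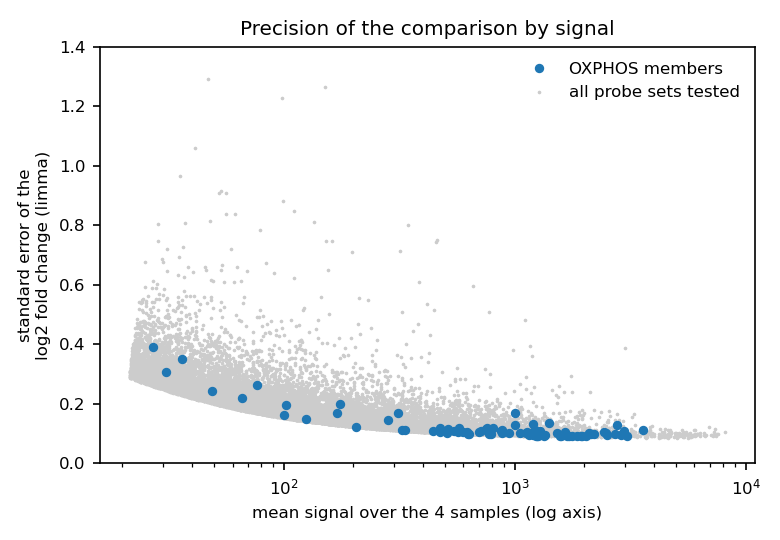
Standard error of the log2 fold change (limma, y axis) against the mean signal over the 4 samples (log x axis), for the 84 members tested (blue) and all 18625 probe sets tested (grey). The members above a signal of 100 have standard errors of 0.0907 to 0.199, and the 6 dimmer ones are less precise.

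In 65 of the 84 members (77.4%) the difference between groups was smaller than the larger range within a group, as it was in 80.9% of all probe sets tested. The median range between replicates was 0.101 (log2) in GDNF and 0.056 in control samples, and the median size of the group difference was 0.052. GDNF replicate 2 lay above GDNF replicate 1 in 62 of the 84 members, while control replicate 2 lay above control replicate 1 in 32. GDNF replicate 2 was the highest of the 4 samples in 47 members (56.0%), against 27.3% of all probe sets tested. GDNF replicate 1 was the lowest in 36 (42.9%), against 26.0%. The signals summed over the 87 genes were 95088 and 102277 in GDNF and 99068 and 96594 in control samples. The 3′ to 5′ ratio of the Gapdh control probe sets, a sign of RNA integrity, had the same order over the samples, at 1.11 and 1.44 in GDNF and 1.28 and 1.22 in control samples. That of beta-actin was 2.62 and 3.61 in GDNF and 3.76 and 3.34 in control samples. Their part in the spread was not tested. The direction of the members' median rested on which GDNF sample was used: it was 0.08 without GDNF replicate 1, with 60 of 84 higher, and -0.031 without GDNF replicate 2, with 33 of 84 higher.

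**Figure D2:**
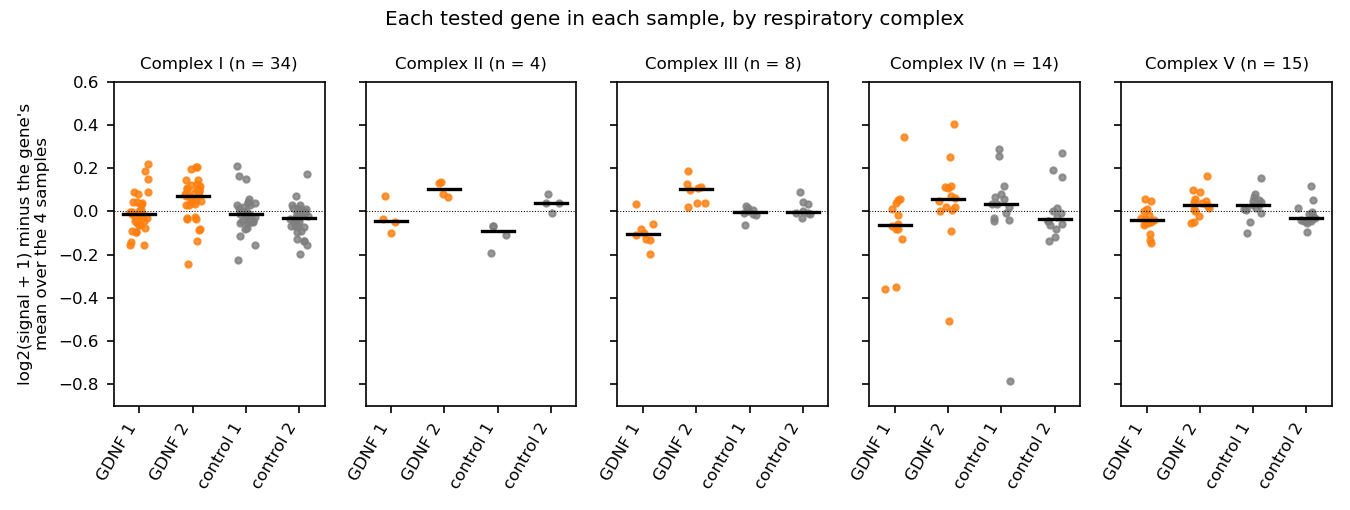
Each tested complex I to V gene's log2(signal + 1) minus its mean over the 4 samples (y axis), in each sample (x axis), by respiratory complex. Points are genes, orange for GDNF and grey for control samples, and bars are medians, which in complex III were -0.11 and 0.10 in GDNF and -0.0034 and -0.0031 in control samples.

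Complex I, the NADH dehydrogenase, held the largest number of members. Of its 34 tested genes 24 were higher and 10 lower in the GDNF mean (median 0.049), and without GDNF replicate 2 the split was 16 to 18 (median -0.0072). The groups did not overlap in 9 that were higher (13.4% of all probe sets tested) and in 2 that were lower (16.6% of all probe sets tested). The core subunits include those that carry the flavin and the iron-sulfur clusters that conduct electrons. Of the core subunits 6 were tested: Ndufs1, Ndufs3, Ndufs7, Ndufs8, Ndufv1 and Ndufv2. Their log2 fold changes ran from -0.045 to 0.092. Ndufv1, which binds NADH, had non-overlapping lower signals, at 627 and 618 in GDNF and 640 and 645 in control samples (log2 fold change -0.04, SE 0.10). The accessory subunits, 28 genes, split into 20 higher and 8 lower. Over core and accessory subunits together, the non-overlapping higher genes included Ndufb2 and Ndufa3, described next. The others were Ndufa11, Ndufa13, Ndufb4, Ndufb7, Ndufb10, Ndufv3 and the core subunit Ndufs8, whose log2 fold changes were 0.09 to 0.16. The other non-overlapping lower gene was Ndufc2 (-0.06). The groups overlapped in Ndufa2, Ndufa6, Ndufa7, Ndufa8, Ndufa9, Ndufa12, Ndufab1, Ndufb3, Ndufb5, Ndufb6, Ndufb8, Ndufb9, Ndufb11, Ndufc1, Ndufs4 and Ndufs6, whose log2 fold changes ran from -0.05 to 0.14.

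Ndufb2, an accessory subunit of the membrane arm, had the highest difference of complex I. Its signal was 979 and 912 in GDNF and 855 and 792 in control samples, so that both treated samples lay above both controls (log2 fold change 0.20, SE 0.10, 95% interval -0.04 to 0.44). Ndufa3, another accessory subunit, had 832 and 849 in GDNF and 760 and 717 in control samples (0.19, SE 0.10, interval -0.05 to 0.42). Leaving out any 1 sample gave 0.14 to 0.26 for Ndufb2 and 0.15 to 0.23 for Ndufa3. The lowest was Ndufb1, with 856 and 829 in GDNF and 982 and 848 in control samples. These overlapped, and control replicate 1 stood above the other samples (log2 fold change -0.12, SE 0.11). Ndufa5 had 282 and 266 in GDNF and 326 and 258 in control samples (-0.08, SE 0.15), and its difference was 0.08 without control replicate 1. Ndufa1, the probe set with the highest mean, had 2685 and 3175 in GDNF and 3042 and 2963 in control samples (-0.04, SE 0.11). Here the GDNF replicates enclosed both controls. For complex I as a whole the lowest and the highest ends of the 34 intervals were -0.49 and 0.45, within a 1.5-fold change.

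Complex II, succinate dehydrogenase, joins the citric acid cycle to the respiratory chain and is encoded wholly in the nucleus. All 4 genes had a higher mean in GDNF, with a median of 0.03, but in 3 of them by a log2 fold change of 0.03. Sdhc, a membrane anchor, had 913 and 955 in GDNF and 761 and 865 in control samples, with no overlap (log2 fold change 0.20, SE 0.11, interval -0.05 to 0.46). Sdhd, the other anchor, had 1139 and 1336 in GDNF and 1165 and 1255 in control samples (0.03, SE 0.11). Sdha, the catalytic flavoprotein whose promoter is printed above, had 1244 and 1362 in GDNF and 1195 and 1362 in control samples (0.03, SE 0.11). Sdhb, the iron-sulfur subunit, had 1027 and 1106 in GDNF and 1005 and 1083 in control samples (0.03, SE 0.10). In all 4 genes replicate 2 lay above replicate 1 in both groups on the brightest probe set. A dimmer probe set of Sdhd had 526 and 472 in GDNF and 479 and 514 in control samples (0.0074, SE 0.11). There GDNF replicate 2 lay below GDNF replicate 1. Without control replicate 1, and likewise without GDNF replicate 2, Sdhc alone of the 4 had a higher mean in GDNF, with medians of -0.024 and -0.029.

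In complex III, the cytochrome bc1 complex, all 8 members were higher in GDNF replicate 2 than in replicate 1. So were 24 of 34 tested genes of complex I, 4 of 4 of complex II, 9 of 14 of complex IV and 13 of 15 of complex V. In 7 members of complex III GDNF replicate 1 was the lowest and in 7 GDNF replicate 2 the highest of the 4 samples. Uqcrq, a small subunit, had 1227 and 1602 in GDNF and 1433 and 1394 in control samples, so that both groups had a mean of 1414 (log2 fold change -0.01, SE 0.14). Uqcrh, the hinge protein and the probe set with the highest mean, had 2271 and 2655 in GDNF and 2446 and 2386 in control samples (0.02, SE 0.11). Uqcrfs1, the Rieske iron-sulfur protein, was the member in which a control sample was lowest, with 1600 and 1608 in GDNF and 1500.0 and 1556 in control samples (0.07, SE 0.09). It had the highest difference of the complex, and its groups did not overlap. Cyc1, cytochrome c1, had the lowest difference and was the member in which a control sample was highest, with 875 and 958 in GDNF and 945 and 1004 in control samples (-0.09, SE 0.10). Of the 8, 3 were higher and 5 lower in the GDNF mean (median -0.015). Centred on array medians the split was 4 to 4 (median 0.0013). Without GDNF replicate 1 it was 7 to 1 (median 0.09), and without GDNF replicate 2 it was 1 to 7 (median -0.12). The others, Uqcr10, Uqcr11 and the core protein Uqcrc1, had 0.03, -0.03 and -0.02. A dimmer probe set of Uqcrc2, a core protein, had 1020 and 591 in GDNF and 931 and 1106 in control samples (-0.39, SE 0.24), where GDNF replicate 2 stood far below the rest. Its brighter probe set had 1615 and 1727 in GDNF and 1699 and 1683 in control samples (-0.02, SE 0.09).

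Complex IV, cytochrome c oxidase, has subunits with isoforms of muscle, lung and testis beside the widely expressed forms. Of its 10 members that are no such isoforms, which include Ndufa4 and were all tested, 5 were higher and 5 lower in the GDNF mean (median 0.016). Cox5b, which binds zinc, had 1262 and 1351 in GDNF and 1229 and 1184 in control samples (log2 fold change 0.11, SE 0.10). Cox6a1 had 1283 and 1277 in GDNF and 1199 and 1181 in control samples (0.10, SE 0.09). Cox6b1 had 1564 and 1590 in GDNF and 1560 and 1381 in control samples (0.10, SE 0.10). In these and in Cox8a (0.05), 4 of the 10, both treated samples lay above both controls (13.4% of all probe sets tested). In 0 of the 10 both lay below (16.6%). For Cox6b1 control replicate 1 lay close to the GDNF samples. Cox6c, the probe set of the complex with the highest mean, had 3278 and 3887 in GDNF and 3723 and 3473 in control samples, with the controls between the GDNF replicates (-0.01, SE 0.11). Cox4i1, the common isoform of subunit 4, had 2738 and 3042 in GDNF and 2934 and 2875 in control samples (-0.0090, SE 0.10). Cox7b, Cox7c and Ndufa4 had -0.04, -0.06 and -0.05. Cox5a was dim on its single-symbol probe set, with 58.5 and 100.1 in GDNF and 73.1 and 75.6 in control samples (0.04, SE 0.26). Another probe set of Cox5a, which carries a second symbol, was left out by the naming rule.

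The tissue isoforms other than Cox6b2 had mean signals under 100, and the highest and the lowest log2 fold changes of the 84 members were among them. Cox4i2, the form of subunit 4 known from lung and linked to low oxygen, had 44.1 and 41.2 in GDNF and 19.6 and 39.5 in control samples. Its groups did not overlap, and control replicate 1 stood apart (log2 fold change 0.59, SE 0.35, interval -0.23 to 1.42). Without control replicate 1 its difference was 0.11. Cox6a2, the heart and muscle form, had 47.0 and 33.1 in GDNF and 57.0 and 57.5 in control samples. Both treated samples lay below both controls, by a log2 fold change of -0.53 (SE 0.24, interval -1.10 to 0.05). This was the member with the smallest unadjusted limma p, 0.0662, and leaving out any 1 sample gave -0.77 to -0.28. Cox6b2, a testis form, had 160 and 159 in GDNF and 207 and 156 in control samples (-0.17, SE 0.17), and 0.03 without control replicate 1. Cox7b2, another testis form, had 51.0 and 70.6 in GDNF and 69.1 and 73.0 in control samples (-0.24, SE 0.22), and -0.0085 without GDNF replicate 1. Cox7a1, Cox8b and Ndufa4l2 lay below the filter and were not tested. Cox7a1, the muscle form of subunit 7a, had 8.8 and 17.3 in GDNF and 10.1 and 21.7 in control samples. Cox8b, a heart and muscle form, had 1.5 and 1.3 in GDNF and 4.4 and 0.8 in control samples. Ndufa4l2, a paralogue of Ndufa4 induced by hypoxia, had 19.5 and 20.2 in GDNF and 14.1 and 22.3 in control samples. The muscle markers Ckm (4.5 and 1.8 in GDNF, 5.3 and 4.5 in control samples) and Acta1 (0.4 and 0.4 in GDNF, 1.6 and 0.5 in control samples) were likewise near the floor. With the isoforms counted, complex IV split into 6 higher and 8 lower (median -0.0099), and centred on array medians into 8 higher and 6 lower (median 0.0065). The median was 0.048 without GDNF replicate 1, 0.031 without control replicate 1 and -0.087 without GDNF replicate 2.

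**Figure D3:**
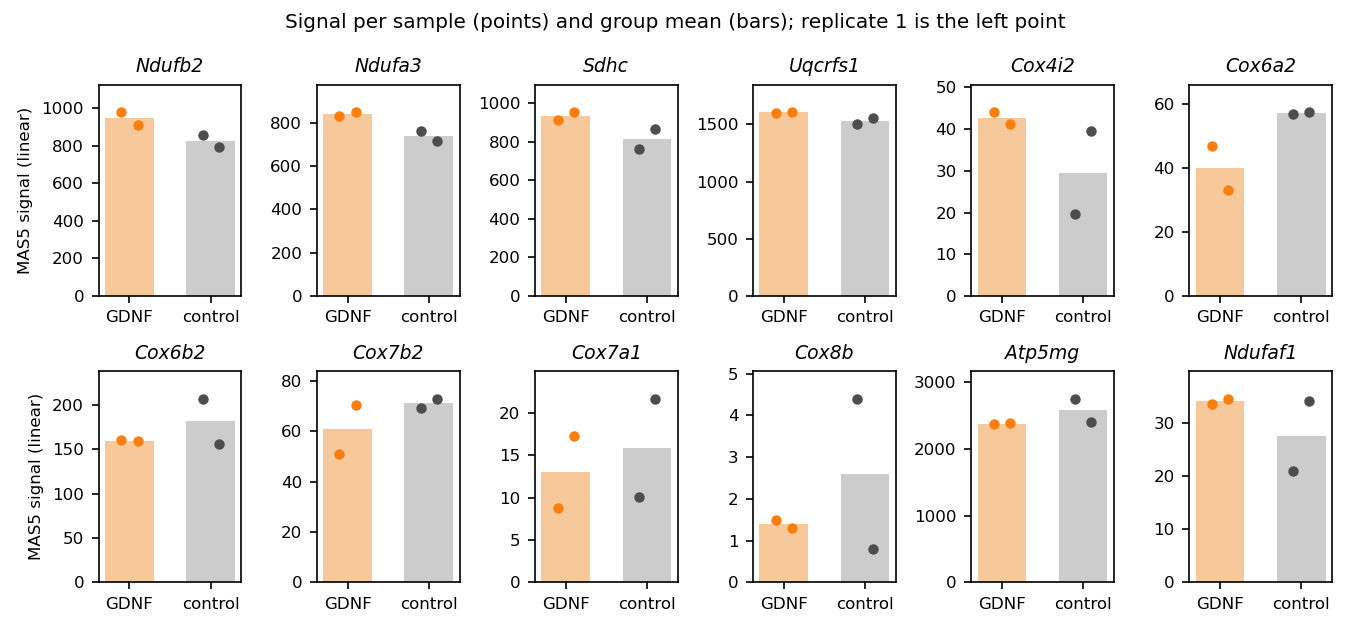
MAS5 signal (linear y axis, starting at 0) in the GDNF and control samples for 12 members, one panel each. Points are samples, replicate 1 on the left, and bars are group means; Cox4i2 and Ndufaf1 differ mainly through control replicate 1, while Cox6a2 has both GDNF samples, 47.0 and 33.1, below both controls, 57.0 and 57.5.

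No gene of complex V, the ATP synthase, passed the threshold. Its 15 log2 fold changes ran from -0.11 to 0.06, and all 15 intervals lay within a 1.5-fold change, with ends between -0.35 and 0.32. The groups did not overlap in 1 that was higher (13.4% of all probe sets tested) and 2 that were lower (16.6%). Of the 15, 6 were higher and 9 lower in the GDNF mean (median -0.0051). Centring on array medians turned this to 9 higher and 6 lower (median 0.011). Without control replicate 1 the split was 11 to 4 (median 0.02), and without GDNF replicate 2 it was 4 to 11 (median -0.043). The F1 head and central stalk, where ATP is made, were measured by 5 genes, of which 2 were higher and 3 lower. Atp5f1a, Atp5f1b and Atp5f1d had -0.02, -0.02 and -0.0051. Atp5f1c, the gamma subunit of the rotating stalk, had 2447 and 2678 in GDNF and 2490 and 2412 in control samples (0.06, SE 0.09). Atp5f1e, the epsilon subunit and the probe set of the complex with the highest mean, had 2495 and 3097 in GDNF and 2914 and 2583 in control samples, with the controls inside the range of the GDNF replicates (0.02, SE 0.13). The peripheral stalk, which holds the head still, had 3 higher and 1 lower of 4. Its Atp5pd had 1735 and 1777 in GDNF and 1668 and 1718 in control samples, with no overlap (0.05, SE 0.09). Atp5po and Atp5pb had 0.03 and -0.00060.

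The membrane subunits of the ATP synthase had 1 higher and 5 lower of 6 (median -0.04). The split was the same with quantile normalization and with median centring. It was 2 to 4 without GDNF replicate 1 (median -0.0067), without control replicate 1 (-0.026) and without control replicate 2 (-0.069). Without GDNF replicate 2 it was 0 to 6 (median -0.095). Atp5mg had 2368 and 2388 in GDNF and 2752 and 2400 in control samples (log2 fold change -0.11, SE 0.10). The groups did not overlap, though control replicate 2 lay close to the GDNF samples. Atp5mk, a small subunit linked to the dimer of the enzyme, had 2474 and 2790 in GDNF and 2801 and 2813 in control samples (-0.10, SE 0.10). Its groups did not overlap either, though GDNF replicate 2 lay close to the controls. Without control replicate 1 Atp5mg had -0.01, and without GDNF replicate 1 Atp5mk had -0.0091. Atp5me, whose promoter is printed above, had 469 and 476 in GDNF and 444 and 516 in control samples (-0.02, SE 0.12). Its second probe set had 18.4 and 17.4 in GDNF and 5.8 and 5.3 in control samples, below the filter, where the groups did not overlap but no test was run. Atp5mc3, Atp5mf and Atp5mpl had -0.04, -0.05 and 0.03. Atp5pf of the peripheral stalk had 1266 and 1292 in GDNF and 1271 and 1228 in control samples (0.03, SE 0.09).

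**Figure D4:**
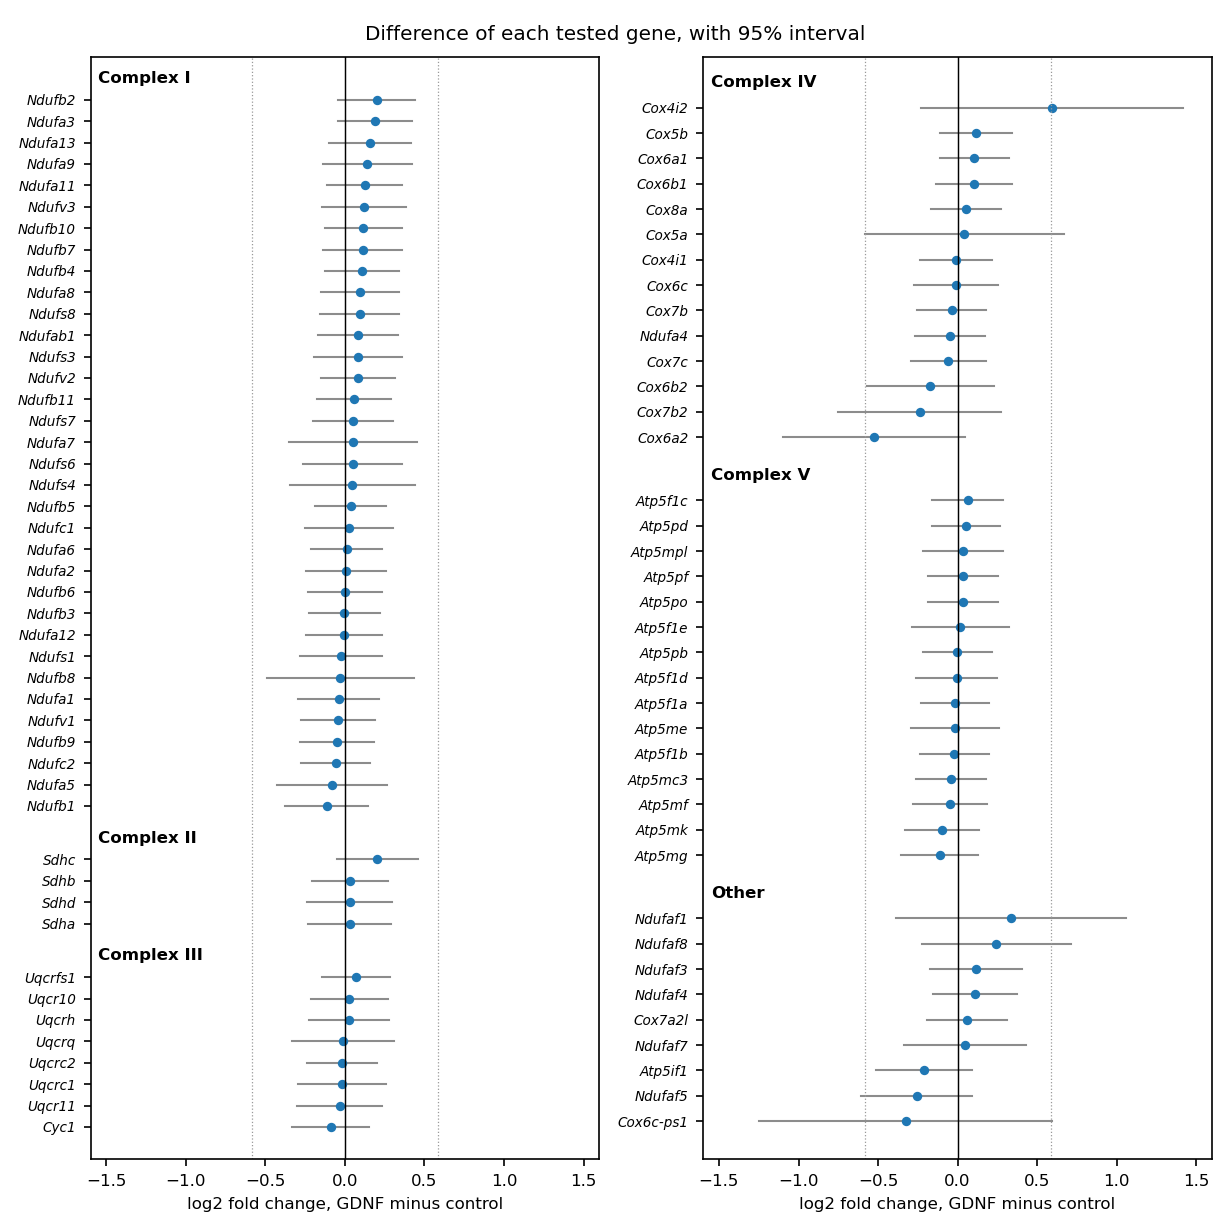
Log2 fold change, GDNF minus control (x axis), of each of the 84 tested members (points) with its 95% interval (lines), by complex. Dotted lines mark a 1.5-fold change; 76 intervals lie between them, and every interval crosses 0.

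The genes that carry the prefixes without being standard subunits had log2 fold changes of -0.33 to 0.33. Of 9 tested, 6 were higher and 3 lower in the GDNF mean (median 0.06), and 5 of the 9 intervals lay within a 1.5-fold change. Ndufaf3, Ndufaf4, Ndufaf8 and Cox7a2l had 0.12, 0.11, 0.24 and 0.06. Ndufaf1, an assembly factor of complex I, was the highest, with 33.6 and 34.6 in GDNF and 21.0 and 34.2 in control samples (log2 fold change 0.33, SE 0.31). Control replicate 1 was the low sample, and without it the difference was -0.0043. The lowest was the pseudogene Cox6c-ps1, with 28.2 and 18.9 in GDNF and 40.7 and 20.9 in control samples (-0.33, SE 0.39), and 0.14 without control replicate 1. Atp5if1 and Ndufaf5 had both treated samples below both controls (16.6% of all probe sets tested), and Ndufaf3 and Ndufaf4 had both above (13.4%). Atp5if1, which blocks ATP hydrolysis by the synthase when respiration fails, had 1031 and 827 in GDNF and 1101 and 1040 in control samples (-0.21, SE 0.13), and a dimmer probe set of it had 0.30. Ndufaf5, an assembly factor of complex I, had 108 and 119 in GDNF and 136 and 136 in control samples (-0.26, SE 0.15). Ndufaf7 differed in direction between its probe sets, at 0.05 (SE 0.16) in the brighter and -0.36 (SE 0.22) in the dimmer. Ndufa7 did too, at 0.05 and -0.07. Of the 9 members with more than 1 probe set, 6 had a second one tested. RefSeq lists pseudogenes named after 41 of the members, up to 8 for 1 gene, and whether a probe set reads RNA of such copies was not tested.

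Mitochondrially encoded subunits of complex IV, which the name rule does not take in and which were looked up after the other values were seen, did not pass the threshold. The probe set annotated COX1 had 7355 and 7962 in GDNF and 8007 and 7173 in control samples (log2 fold change 0.01, SE 0.10). That annotated COX2 had 6913 and 8338 in GDNF and 7411 and 6795 in control samples (0.10, SE 0.12).

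The known regulators of mitochondrial biogenesis had 3 higher and 12 lower of 15 tested (median -0.06). In 4 both GDNF samples lay below both controls (16.6% of all probe sets tested), and in 0 above (13.4%). Among the regulators 0 passed the limma threshold, against 0% of all probe sets tested. At an unadjusted limma p under 0.05 it was 0 too, against 2.73% of all probe sets tested. The list's median was -0.01 without GDNF replicate 1 and -0.11 without GDNF replicate 2. Nrf1, the transcription factor whose motif is marked above, had 74.2 and 78.7 in GDNF and 92.0 and 94.0 in control samples. Both treated samples lay below both controls (log2 fold change -0.28, SE 0.16, interval -0.67 to 0.11), and leaving out any 1 sample gave -0.32 to -0.24. Gabpa, the DNA-binding part of GABP, had 305 and 357 in GDNF and 329 and 338 in control samples (-0.02, SE 0.13). Median centring turned Gabpa to 0.00080. Tfam, which packages and transcribes mitochondrial DNA, had 406 and 546 in GDNF and 464 and 531 in control samples (-0.08, SE 0.16), and turned to 0.14 without GDNF replicate 1. The coactivator Ppargc1a was dim, with 32.5 and 18 in GDNF and 37.8 and 30.0 in control samples (-0.46, SE 0.34). Without GDNF replicate 2 its difference was -0.05, without GDNF replicate 1 it was -0.87, and without control replicate 1 it was -0.30. Esrra, the ERR-alpha receptor, had 27.7 and 25.1 in GDNF and 28.1 and 25.7 in control samples (-0.03, SE 0.27). Members with an NRF1 motif in the promoter had a median log2 fold change of 0.033 (19 tested) and those without it 0.026 (56 tested). For the ETS motif these medians were 0.016 (22) and 0.033 (53), and for the YY1 motif 0.04 (16) and 0.025 (59).

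Lists of other mitochondrial genes had medians near 0 as well. Of the further assembly factors of the complexes, 24 were higher and 12 lower of 36 tested (median 0.036), led by Cox17, a copper chaperone of complex IV, with 395 and 464 in GDNF and 333 and 376 in control samples (0.28, SE 0.13). Of the protein import machinery 10 were higher and 7 lower of 17 (median 0.021), and of the carriers and electron transfer proteins 6 were higher and 7 lower of 13 (median -0.0097). The citric acid cycle had 6 higher and 8 lower of 14 (median -0.022). Ogdh, of its 2-oxoglutarate dehydrogenase, was the lowest, with 387 and 417 in GDNF and 457 and 482 in control samples (-0.22, SE 0.11). The medians of these lists changed sign with 1 sample left out. Without GDNF replicate 2 that of the assembly factors was -0.0061 and that of import -0.0098. Without GDNF replicate 1 that of the carriers was 0.038, and without control replicate 2 that of the citric acid cycle was 0.022. In these lists 0 genes passed the limma threshold, against 0% of all probe sets tested. An unadjusted limma p under 0.05 was found for 0 of them, against 2.73% of all probe sets tested.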

How the data were processed

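Each of the 4 RNA pools was hybridised to 1 Affymetrix rat array, and the deposited table holds 1 intensity per probe set, a linear MAS5 signal per the submitters' processing notes. Affymetrix's own 57 control probe sets were dropped. Values were tested as log2(signal + 1) with limma 3.58.1 (R 4.3.3; lmFit, eBayes with a mean-variance trend, two-sided, group as the single term) on the 18625 probe sets with a mean log2 value at or above the 40th percentile, with Benjamini-Hochberg adjustment over all of them and a threshold of 0.05. Intervals are moderated 95% intervals. The filter and the brightest probe set per gene used the mean over all 4 arrays. Genes were named through GEO's platform annotation: 20826 probe sets have 1 symbol, 436 several and 9780 none. All 87 members matched RefSeq by Entrez identifier with the same symbol.

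Members, gene lists and cell type markers were chosen with earlier results of these data known, and the motif spellings after several had been tried. Genes with full statistics were, for complexes I, IV and V, the 2 highest and 2 lowest log2 fold changes and the brightest member, for complex III the highest, lowest and brightest, all of complex II, the highest and lowest of the other genes, the tissue isoforms and 5 regulators. Ndufv1, Uqcrq, Uqcrc2, Cox4i1, Cox5a, Cox6a1, Cox6b1, Atp5me, Atp5pf, Atp5if1, Ndufaf5, Cox17, Ogdh, COX1 and COX2 lie outside this rule and were chosen after their values were seen. The fit was tested on simulated data. Alternatives were a pseudocount of 16, other filters, quantile normalization, median centring, no trend, a replicate block, other probe sets and leaving out each sample.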

Additional observations from a re-analysis of the deposited data

How the results depend on the processing

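No oxidative phosphorylation gene passed the threshold under any of the alternatives run, which were quantile normalization, centring on the median, an untrended eBayes, replicate number as a block, a pseudocount of 16, all probe sets unfiltered, the 60th percentile as the filter, the second brightest probe set of 6 genes, and each of the 4 samples left out. Over the alternatives that kept all 4 samples, the members' median log2 fold change ran from 0.0208 (quantile normalization) to 0.044 (median centring), and the members with a higher mean in GDNF from 48 of 84 (quantile normalization) to 57 of 84 (median centring). Leaving out any 1 sample, the median ran from -0.031 to 0.08 and the members with a higher mean from 33 to 60. With replicate number as a block, 8 probe sets passed the threshold instead of 0, among them Car3, Arg2, the oocyte marker Gdf9, Irx3 and Stc1. The deviations of same-numbered samples from their group means correlated at 0.32 over 18625 probe sets, but the labels do not say that the numbers pair the samples, and there are only 2 pairs. At an unadjusted limma p under 0.05, Cox6a2 passed without the trend (3.22% of all probe sets did) and with the block (7.28% did), Cox4i2 without control replicate 2 (1.89% did), and Atp5if1, Cox6a2 and Ndufa9 without GDNF replicate 1, a setting in which 10.3% of all probe sets did. Leaving out a sample leaves an arm with 1 sample, assumed to vary like the other group. Some log2 fold changes close to 0 changed sign, and the cause was not tested: quantile normalization gave Atp5f1e -0.0011, and median centring gave Cox6c 0.0056 and Gabpa 0.0008. With a sample left out, the values ran from -0.0658 to 0.1232 for Sdha, -0.0236 to 0.0849 for Sdhb, -0.0863 to 0.1438 for Sdhd, -0.1614 to 0.0808 for Ndufa1, -0.2526 to 0.0849 for Ndufa5, -0.0894 to 0.136 for Uqcrh, -0.3749 to 0.0342 for Cox6b2, -0.1336 to 0.1122 for Cox6c, -0.0021 to 0.1278 for Atp5f1c, -0.1373 to 0.1745 for Atp5f1e, -0.0043 to 0.6738 for Ndufaf1, -0.7907 to 0.1384 for Cox6c-ps1, -0.1288 to 0.0976 for Gabpa, -0.2893 to 0.1365 for Tfam and -0.0949 to 0.0421 for Esrra. Low signal limits the precision for Cox4i2, Cox5a, Cox6a2, Cox7b2, Ndufaf1 and Cox6c-ps1.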
